A study of Mus musculus with 16 samples.

Results

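Genes of the oligodendrocyte lineage and of myelin were followed in hippocampal RNA of 2 mouse lines given desipramine or saline. The set holds 35 genes, named as known genes of this cell lineage at a time when earlier results of these data were known, and 32 of them had a probe on the array, out of 16593 genes with a probe in all. They comprised 3 genes of precursors and newly formed cells, 3 transcription factors, 12 genes of the myelin membrane, 6 enzymes and 8 further genes enriched in oligodendrocytes. Sox10, Nkx6-2 and Myrf were not analysed here.

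The samples came from male Swiss-Webster mice of the HA and LA lines, selected over generations for strong (HA) or weak (LA) pain relief after a swim stress, aged 15 weeks by the labels. Desipramine (DMI), a tricyclic antidepressant acting on the noradrenaline transporter, was given intraperitoneally at 7.5 mg/kg/day in 21 daily injections, and control mice of each line were given saline injections on the same schedule. By the study's methods tissue was taken 2 days later and RNA of 3 mice was pooled for each array, which gave 4 pools from 12 mice in each of the 4 groups: HA DMI, HA saline, LA DMI and LA saline. A label field on treatment names desipramine for all 16 samples, so treatment was taken from the sample titles and characteristics.

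Oligodendrocytes wrap axons in myelin, a stacked membrane that speeds conduction and supports the axon. They arise from dividing precursors that carry the growth factor receptor Pdgfra and the proteoglycan Cspg4, pass through a brief stage marked by Gpr17 and Enpp6, and then switch on myelin proteins such as Mbp, Mog and Mag together with the enzymes that make myelin lipids. The factors Olig1, Olig2 and Nkx2-2 act along this path. In the hippocampus most myelin lies in the alveus, the fimbria and the deep layers. In whole tissue, fewer oligodendrocytes and less RNA per oligodendrocyte cannot be told apart.

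Promoter sequences were at hand for 22 of the 32 genes (RefSeq, mouse build GRCm38.p6). The 250 bases before each start were searched on both strands for CAGCTG, an E-box of the type bound by Olig factors, ACAAAG, a site of the Sox type, and CTGGCAC, a site of the Myrf type. ACAAAG or its reverse complement CTTTGT was found in 29% of 31 windows of the member genes, which belonged to Cnp, Gjb1, Mag, Mobp, Opalin, Plekhb1 and Tspan2, and in 16.5% of all 32841 windows. CAGCTG was found in 9.68% of the member windows (Aspa and Gsn) against 13% of all, and CTGGCAC in 9.68% (Cnp and Mag) against 4.19%. Overlapping windows of Mag hold the same Sox-type and Myrf-type sites, and each of these windows was counted. The motifs do not overlap each other in the windows shown. Plekhb1 is shown as the only gene with a lower signal in HA DMI, by the test below, that has a promoter in the table, Mobp for its 6 Sox-type matches, and Cnp because it holds 2 of the motifs; capitals mark the matches, and each is a description of letters and not a bound site.
Plekhb1 (chr7:100656966-100657215, minus strand): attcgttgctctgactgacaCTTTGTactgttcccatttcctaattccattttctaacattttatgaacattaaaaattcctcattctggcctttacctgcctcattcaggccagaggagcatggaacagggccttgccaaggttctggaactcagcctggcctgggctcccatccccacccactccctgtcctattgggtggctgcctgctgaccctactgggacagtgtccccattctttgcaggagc
Mobp (chr9:120149492-120149741, plus strand): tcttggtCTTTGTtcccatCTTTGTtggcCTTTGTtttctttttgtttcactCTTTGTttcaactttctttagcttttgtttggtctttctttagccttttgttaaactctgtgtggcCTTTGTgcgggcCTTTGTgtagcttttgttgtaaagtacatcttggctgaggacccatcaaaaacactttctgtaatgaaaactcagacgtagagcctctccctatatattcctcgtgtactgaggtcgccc
Cnp (chr11:100574689-100574938, plus strand): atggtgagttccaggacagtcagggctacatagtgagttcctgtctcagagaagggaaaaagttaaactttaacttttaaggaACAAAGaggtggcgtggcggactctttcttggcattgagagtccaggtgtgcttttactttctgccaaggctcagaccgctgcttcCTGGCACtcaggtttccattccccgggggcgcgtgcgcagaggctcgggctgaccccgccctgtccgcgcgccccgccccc

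Expression was read on Illumina MouseRef-8 arrays of 25697 probes, and values below are log2 signals after quantile normalization. Where a gene had several probes, the one brightest on average over the 16 arrays stood for it. Differences were tested with limma over all probes, with Benjamini-Hochberg adjusted p-values, and "fell", "rose", "higher than" and "lower than" are used of genes only where the adjusted p was under 0.05. Precision is set by the number of arrays, and p-values measure the spread between pools of mice. Detected probes numbered 12900 to 13886 on an array, and arrays of one group correlated at 0.989 to 0.996. Of the genes that define the lineage, Mbp, Mog, Mag, Mobp, Cnp, Cldn11 and Opalin, which mark mature oligodendrocytes, were detected on all 16 arrays, and of the precursor markers Pdgfra was detected on 16 and Cspg4 on 14. The hippocampal markers Prox1 and Wfs1 were detected on all arrays, and Neurod6 on 0. Of the 32 genes, Olig2 and Gjb1 were detected on 10 arrays, Gsn on 14, Aspa on 3 and Ermn on 0, so that the last 2 were too dim to follow.

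Arrays of the LA saline group stood apart from each other. The mean of 10 striatal genes, centred on each gene's mean, was 0.77, 1.26, -0.34 and 0.53 on LA saline replicates 1 to 4 and between -0.48 and 0.10 on the other 12 arrays. Replicate 2 also had the lowest mean of 11 genes of hippocampal principal cells, -0.32. The oligodendrocyte genes followed a similar split. The mean of 23 mature genes was highest within the group on replicate 2 (0.18) and lowest on replicate 3 (-0.27), and the median SD over 26 member genes detected on every array was 0.24 in LA saline against 0.10 to 0.11 in the other 3 groups. Over all 7608 genes detected on every array it was 0.12 in LA saline and 0.09 to 0.10 elsewhere. The median over the set in each comparison with LA saline is given below with and without these 2 arrays.

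**Figure D1:**
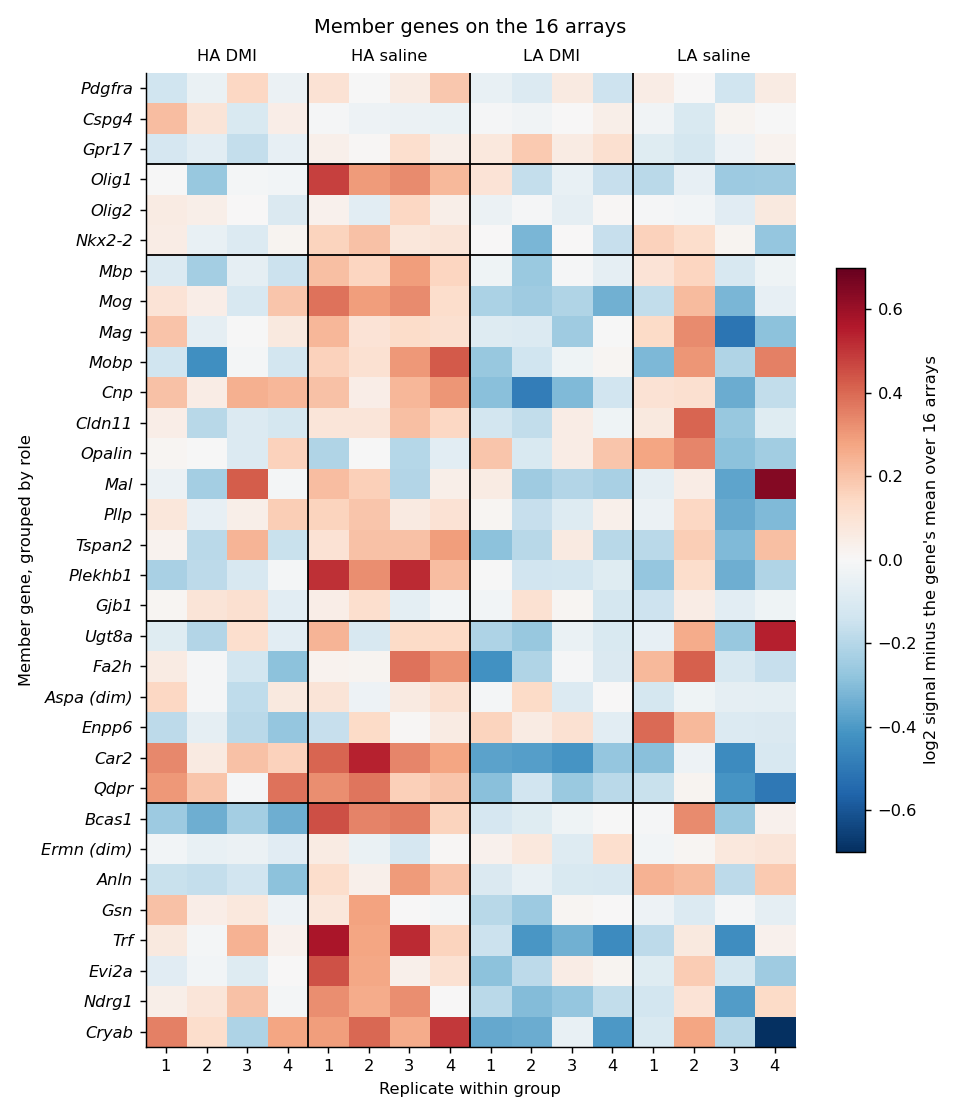
Log2 signal of the 32 member genes (rows, grouped by role) on the 16 arrays (columns, by group and replicate), as the difference from each gene's mean over the arrays; red is higher and blue lower. The 4 HA saline arrays are red over most rows, and LA saline replicates 2 and 3 differ from each other in most myelin genes.

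The HA line was compared first. In HA mice, 4 oligodendrocyte genes fell in the DMI group relative to saline: Bcas1, Plekhb1, Olig1 and Mbp. None rose. This was 4 of 32 genes, where 0.331% of all probes passed in either direction and 0.257% passed with a lower signal. The direction follows the labels, as log2 DMI minus saline. It is opposite to the one that the study's text gives for its DMI comparison in HA. In LA it was opposite too for the choroid plexus genes that the text names, and 15 of 15 listed genes of that tissue lay below 0. The study also ran qPCR on unpooled RNA for selected genes of each line, and reports that the array differences held. Whether the DMI and saline labels are exchanged, in HA alone or in both lines, was not settled here. If in HA alone, every HA difference would turn its sign and the comparisons of the lines would pair other groups. If in both, the LA differences, the difference between the lines and the mean of both would also turn their sign. The saline and DMI comparisons of the lines would then trade places. The sizes and the separation of the HA groups do not depend on which labels are right. With a minimum size of 0.5 on the log2 scale added, 2 genes passed (Bcas1 and Plekhb1), against 0.113% of all probes.

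Bcas1, a gene of newly myelinating oligodendrocytes, had the largest difference. Its log2 signal was 11.72, 11.64, 11.74 and 11.64 on the HA DMI arrays and 12.43, 12.33, 12.34 and 12.13 on the HA saline arrays. The DMI arrays lay close together and every one was below every saline array. Bcas1 fell by 0.62 on the log2 scale (SE 0.0891, adjusted p = 0.00592 by limma), a 1.54-fold lower signal. For Plekhb1, a membrane protein with a pleckstrin homology domain, the values were 11.60, 11.65, 11.72 and 11.82 in HA DMI and 12.34, 12.15, 12.35 and 12.04 in HA saline. The groups again did not overlap, and Plekhb1 fell by 0.53 (SE 0.0874, adjusted p = 0.0180), or 1.44-fold.

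Olig1, a helix-loop-helix factor needed for maturation and repair of oligodendrocytes, read 11.50, 11.24, 11.49 and 11.48 in HA DMI and 11.98, 11.80, 11.83 and 11.73 in HA saline. Replicate 2 of the DMI group was below its group, and the groups did not overlap with or without it. Olig1 fell by 0.41 (SE 0.0736, adjusted p = 0.0243). Olig2 and Nkx2-2, the other lineage factors, differed by -0.04 and -0.15 and did not pass (adjusted p = 0.94 and 0.69). Olig2 was detected on only 10 of 16 arrays and read 6.60 to 6.85, so little can be read from its value. Nkx2-2 read 6.99 to 7.14 in HA DMI and 7.17 to 7.29 in HA saline, without overlap.

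Mbp encodes myelin basic protein, which holds the inner faces of the membrane together. At the probe used it read 13.66, 13.52, 13.69 and 13.60 in HA DMI and 13.97, 13.90, 14.04 and 13.90 in HA saline. These ranges were narrow and separate, and Mbp fell by 0.34 (SE 0.0653, adjusted p = 0.0326), a 1.26-fold lower signal. Its other probes did not pass in HA. For each of the 4 genes the exact two-sided permutation test of 4 against 4 arrays gave p = 0.0286, the smallest that 70 splits allow.

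Bcas1 passed whichever array was left out, with an adjusted p of at most 0.0344. The other 3 did not. Bcas1 was the only gene that passed when replicate 1 of either group, HA DMI replicate 2 or HA saline replicate 3 was left out. Plekhb1 joined it when HA DMI replicate 3 or HA saline replicate 2 was left out, and Plekhb1 and Olig1 did when replicate 4 of either group was. When arrays were scaled to a common median instead, no gene of the set passed, although Bcas1 still differed by -0.55, Plekhb1 by -0.47, Olig1 by -0.34 and Mbp by -0.30 and the set median was -0.15, and with a normexp background Bcas1 and Plekhb1 passed.

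**Figure D2:**
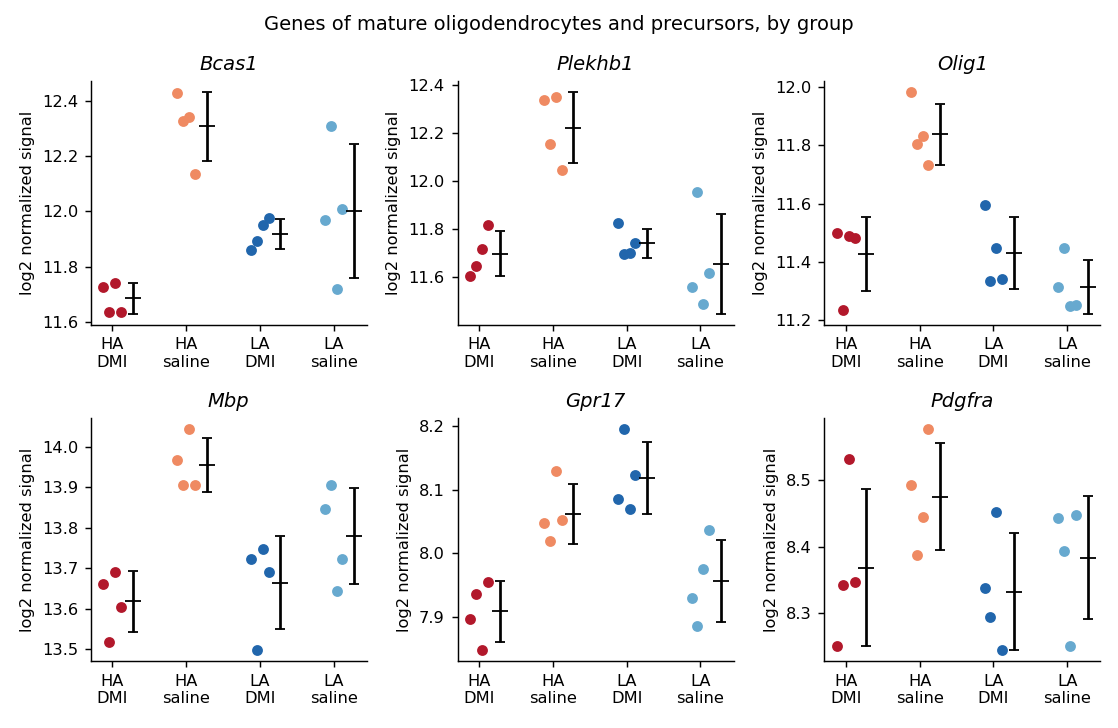
Log2 normalized signal of 6 genes in the 4 groups; points are arrays, the bar is the group mean and the whiskers are 1 SD (n = 4 arrays of 3 pooled mice), and the y axes do not start at 0. For Bcas1, Plekhb1, Olig1 and Mbp the HA saline arrays lie above all HA DMI arrays, Gpr17 separates in opposite directions in HA and LA, and the groups of Pdgfra overlap.

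Across the whole set, the median HA difference was -0.16 on the log2 scale, with a range from -0.62 to 0.14, while the median over all genes was 0.00074. The difference was below 0 for 29 of 32 genes, against 49.6% of all genes. At an unadjusted p under 0.05, 13 genes had a lower and 0 a higher signal, where 5.61% of all genes were lower and 3.9% higher, and for 10 genes the HA DMI arrays were all below the HA saline arrays, which 4.16% of all genes were. The genes of one cell type share their source, so these counts describe the set and are not separate observations.

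By role, the median HA difference was -0.16 over the 12 myelin membrane genes, -0.17 over the 6 enzymes, -0.24 over the 8 further genes and -0.15 over the 3 factors. Within the myelin membrane group the values were uneven. Mobp, a small basic protein of compact myelin, read 9.96, 9.67, 10.08 and 9.97 in HA DMI and 10.26, 10.20, 10.40 and 10.52 in HA saline. Its groups did not overlap, but at -0.43 (SE 0.131) it did not pass (adjusted p = 0.224). Mog, on the outer surface of myelin, read 9.78, 9.73, 9.58 and 9.88 against 10.06, 9.98, 10.02 and 9.81. One DMI array reached into the saline range, and the difference was -0.23 (SE 0.091, adjusted p = 0.452).

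Cnp, an enzyme that keeps cytoplasmic channels open inside myelin, showed no such gap. It read 10.34, 10.18, 10.38 and 10.36 in HA DMI and 10.33, 10.18, 10.36 and 10.44 in HA saline. The difference was -0.01 with a 95% interval from -0.21 to 0.19, and its sign turned to 0.0078 under median scaling. Mag, an adhesion protein facing the axon, differed by -0.09, Cldn11, the tight junction protein of myelin, by -0.22, the tetraspanin Tspan2 by -0.22, Pllp by -0.07 and Mal by -0.02. Opalin, a membrane protein confined to oligodendrocytes, had the highest value of the set, 0.14. None of these passed, and their adjusted p ran from 0.54 (Cldn11) to 0.99 (Mal).

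Among the enzymes, Car2, the carbonic anhydrase of myelin, read 10.38, 10.10, 10.24 and 10.20 in HA DMI and 10.45, 10.58, 10.38 and 10.31 in HA saline, a difference of -0.20 (SE 0.0802, adjusted p = 0.446). Qdpr, which regenerates tetrahydrobiopterin, read 10.22, 10.12, 9.91 and 10.30 against 10.25, 10.30, 10.08 and 10.11 and differed by -0.05. Both genes overlapped between the groups. Fa2h, which hydroxylates the fatty acids of myelin lipids, differed by -0.28, Ugt8a, which makes galactocerebroside, by -0.16, and the choline phosphodiesterase Enpp6 by -0.19.

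Among the further genes, Anln, an actin-binding protein of the septin scaffold in myelin, read 8.85, 8.84, 8.87 and 8.72 in HA DMI and 9.13, 9.04, 9.30 and 9.20 in HA saline. The groups were separate and the difference was -0.35 (SE 0.0778), just short of the threshold (adjusted p = 0.0654). Evi2a, a membrane protein gene, read 8.78, 8.83, 8.76 and 8.86 against 9.30, 9.12, 8.89 and 8.96, again without overlap and without passing (-0.26, adjusted p = 0.370). Trf, the iron carrier transferrin, differed by -0.30, the small heat shock protein gene Cryab by -0.23, Ndrg1 by -0.15 and the actin-severing Gsn by -0.02.

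**Figure D3:**
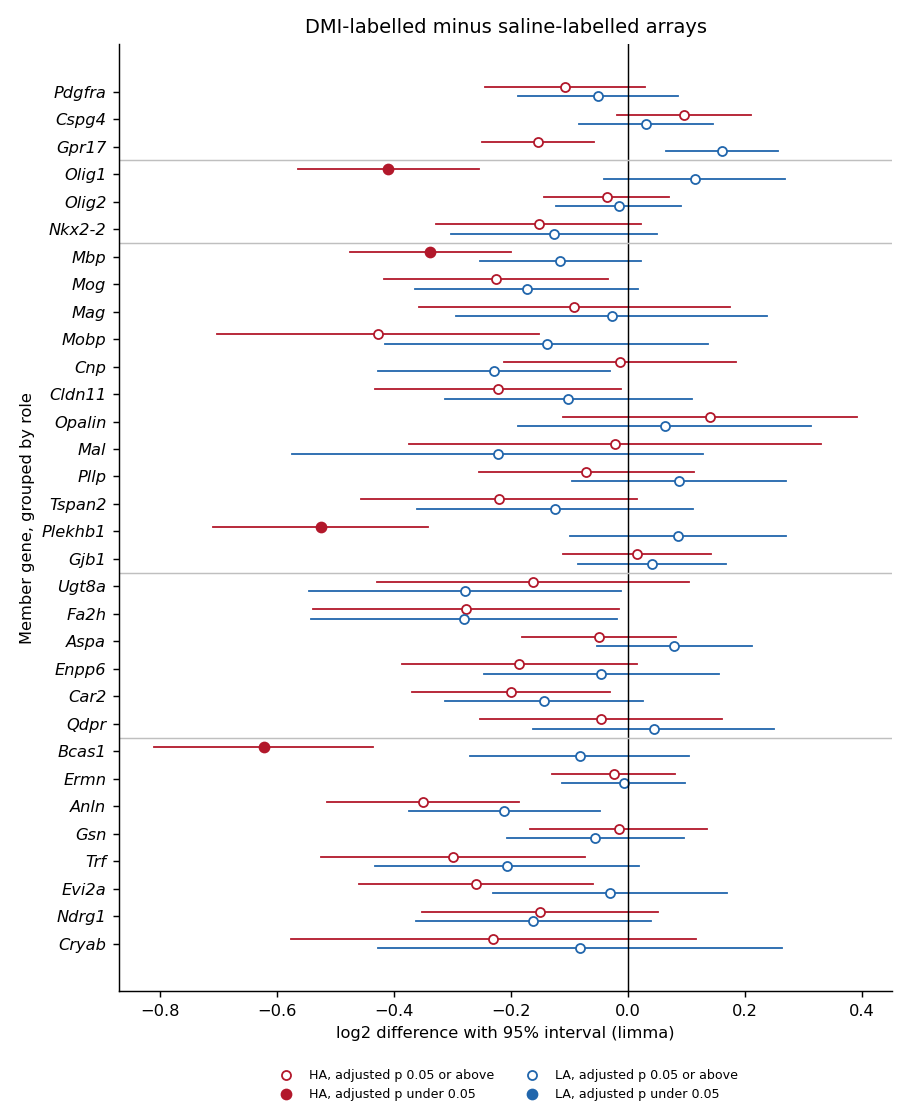
Log2 difference between DMI and saline arrays with limma's 95% interval for each member gene, in HA (red) and LA (blue), n = 4 arrays per group; filled points have an adjusted p under 0.05. Filled points are Bcas1, Plekhb1, Olig1 and Mbp, all in HA and all below 0.

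The same question was put to the LA line, and there no oligodendrocyte gene passed (0 of 32, with 0.0662% of all probes passing in either direction). The median LA difference was -0.07, with 23 of 32 genes below 0 against 48.9% of all genes, and it was -0.00052 with 16 genes below 0 under median scaling. It was -0.02 with 18 genes below 0 without LA saline replicate 2, and -0.12 with 24 below 0 without replicate 3, so that its size rested on these arrays. At an unadjusted p under 0.05, 4 genes had a lower signal (4.53% of all genes did) and 1, Gpr17, a higher one (4.78% of all genes). Bcas1 read 11.86, 11.89, 11.95 and 11.98 in LA DMI and 11.97, 12.31, 11.72 and 12.01 in LA saline, where replicates 2 and 3 spanned the whole DMI range, and the difference was -0.08 (95% interval -0.27 to 0.11). Plekhb1 read 11.82, 11.69, 11.70 and 11.74 against 11.56, 11.95, 11.49 and 11.62, a difference of 0.09 (95% interval -0.10 to 0.27).

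Olig1 in LA read 11.60, 11.33, 11.45 and 11.34 under DMI and 11.31, 11.45, 11.25 and 11.25 under saline, which overlap, with a difference of 0.11. Mbp read 13.72, 13.50, 13.75 and 13.69 against 13.85, 13.90, 13.64 and 13.72, a difference of -0.12 (adjusted p = 0.662). Anln read 8.90, 8.96, 8.90 and 8.89 against 9.25, 9.22, 8.82 and 9.19, so that LA saline replicate 3 lay below the other 3. Its difference of -0.21 had an adjusted p of 0.413, and without that array Anln was the 1 gene of the set that fell in LA. The values of Cnp (-0.23), Fa2h (-0.28) and Ugt8a (-0.28) had an unadjusted p under 0.05 and adjusted p-values of 0.48 to 0.55.

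Whether the lines differed in their DMI difference was tested as the HA difference minus the LA difference, and 0 of 32 genes passed (0.00389% of all probes did). The values were -0.61 (SE 0.124) for Plekhb1 and -0.52 (SE 0.104) for Olig1, both with an adjusted p of 0.126, and -0.54 (SE 0.126) for Bcas1 (adjusted p = 0.225). At an unadjusted p under 0.05, 5 genes were lower and 0 higher, where 4.64% of all genes were lower. The median over the set was -0.08, with 24 of 32 below 0 against 50.5% of all genes. Without LA saline replicate 2, Bcas1, Olig1 and Plekhb1 passed with a lower value in HA and the median was -0.16, while without replicate 3 no gene passed and the median was -0.02, with 19 below 0. In the mean of the HA and LA differences, 3 genes fell: Bcas1 by 0.35 (SE 0.0630, adjusted p = 0.0219), Anln by 0.28 (SE 0.0550, adjusted p = 0.0321) and Mbp by 0.23 (SE 0.0462, adjusted p = 0.0383), where 0.416% of all probes passed and 0.304% fell. The median over the set in this mean was -0.14, at -0.10 without LA saline replicate 2 and -0.16 without replicate 3. Bcas1 lost this call in 2, Anln in 11 and Mbp in 12 of the 16 fits that each left out 1 array. None of these 3 passed under median scaling or with a normexp background, nor when HA saline replicate 1 or LA DMI replicate 2 was left out.

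Precursor genes were set against mature genes. The average of the 3 precursor genes lay between -0.08 and 0.06 on every array, in HA over members of opposite sign (Gpr17 at -0.15 and Cspg4 at 0.10), while the mean of the 23 mature genes detected on 4 or more arrays was 0.17 to 0.23 in HA saline and -0.07 to 0.04 in HA DMI. On the LA arrays the mature mean ran from -0.21 to -0.11 with DMI and from -0.27 to 0.18 with saline. Over all 25 mature genes with a probe, among which Bcas1 was counted, the median HA difference was -0.20, with 23 below 0. Over the 3 precursor genes it was -0.11, with 2 below 0. In LA these medians were -0.10 and 0.03.

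Pdgfra, the receptor that keeps precursors dividing, read 8.25, 8.34, 8.53 and 8.35 in HA DMI and 8.49, 8.39, 8.45 and 8.58 in HA saline. In LA it read 8.34, 8.29, 8.45 and 8.25 under DMI and 8.44, 8.39, 8.25 and 8.45 under saline. All 4 groups overlapped, with differences of -0.11 in HA (95% interval -0.24 to 0.03) and -0.05 in LA (95% interval -0.19 to 0.09). Cspg4 read 6.98, 6.86, 6.66 and 6.81 in HA DMI and 6.76, 6.73, 6.72 and 6.72 in HA saline, and the difference of 0.10 had a 95% interval from -0.02 to 0.21. In LA its values were 6.76, 6.74, 6.76 and 6.80 against 6.74, 6.66, 6.78 and 6.76, a difference of 0.03, close to the level where probes are not detected.

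Gpr17, a receptor of cells that have left the precursor stage but do not yet make myelin, was the only one of the 32 genes whose arrays separated in opposite directions in the lines. It read 7.90, 7.94, 7.85 and 7.95 in HA DMI and 8.05, 8.02, 8.13 and 8.05 in HA saline, while in LA it read 8.09, 8.20, 8.07 and 8.12 under DMI and 7.93, 7.89, 7.97 and 8.04 under saline. The DMI arrays were all below the saline arrays in HA and all above them in LA. Of all genes, 4.16% were separate and lower in HA and 2.33% were separate and higher in LA. How many of all genes did both was not counted. The differences were -0.15 (SE 0.0457, adjusted p = 0.202) and 0.16 (adjusted p = 0.266), and the difference between the lines, -0.32 (SE 0.0646), did not pass either (adjusted p = 0.133).

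**Figure D4:**
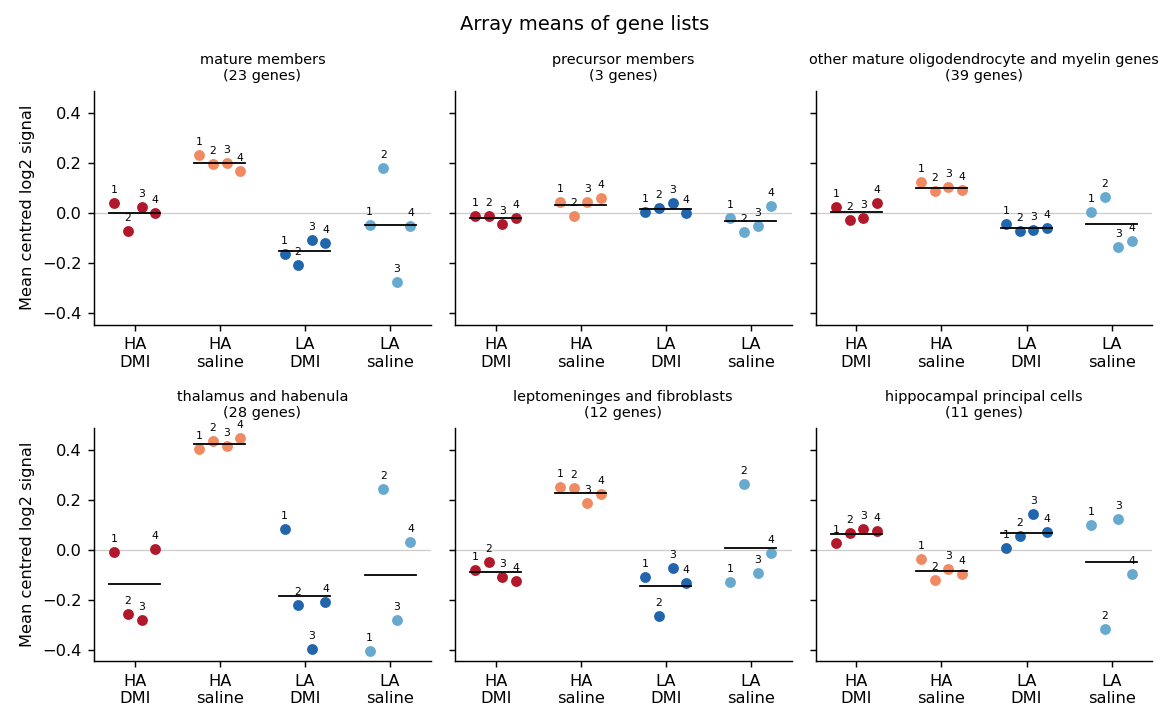
Mean centred log2 signal per array over 6 gene lists, by group; each point is an array with its replicate number and the bar is the group mean. HA saline lies above HA DMI for the mature members, for the other mature oligodendrocyte genes and for the thalamus and leptomeninges lists. The average of the precursor members lies between -0.08 and 0.06. LA saline replicate 2 is the highest LA saline point for the mature members and the lowest for hippocampal principal cells.

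Some other cell types moved along with the mature genes in HA, and others did not. Of 33 genes of thalamus and habenula, 31 had a value below 0 in HA, against 49.6% of all genes. Their median was -0.40, and 5 fell, where 0.331% of all genes did. The mean of the 28 that were detected on 4 or more arrays lay at 0.40 to 0.45 on the HA saline arrays and at -0.28 to 0.0045 on the HA DMI arrays. On the LA arrays it lay at -0.40 to 0.08 with DMI and at -0.40 to 0.24 with saline. Their defining genes were detected on 15 or more arrays: Tcf7l2 differed by -1.17 (adjusted p = 0.0426) and Gbx2 by -1.05 (adjusted p = 0.0299), Slc17a6 by -1.35 (adjusted p = 0.104) and Calb2 by -0.91 (adjusted p = 0.183). Of 17 genes of leptomeninges and fibroblasts 2 fell and 15 were below 0, and the mean of 12 of them was 0.19 to 0.25 in HA saline against -0.13 to -0.05 in HA DMI. The mean of 13 astrocyte genes was 0.06 to 0.12 in HA saline and -0.17 to 0.0046 in HA DMI, that of 15 genes of endothelium and pericytes -0.02 to 0.04 and -0.17 to -0.08, and that of 14 choroid plexus genes 0.38 to 0.51 and 0.16 to 0.28. None of these lists overlapped between the 2 groups, and the group means differed by -0.15, -0.15 and -0.22, against -0.20 for the 23 mature oligodendrocyte genes. Of the 15 genes of endothelium and pericytes, 5 were above 0 in HA, and the median of the 15 was -0.10. The mean of 11 genes of hippocampal principal cells was -0.12 to -0.04 in HA saline and 0.03 to 0.08 in HA DMI. For the microglial and striatal lists the HA group means differed by 0.08 and -0.02. The part of these cells and tissues in the result was not tested.

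Other genes of the pathway had smaller differences. Of 52 further genes of mature oligodendrocytes and myelin, 43 had a probe, and in HA their median difference was -0.09 with 34 below 0. Over the 39 detected on 4 or more arrays, the mean was 0.09 to 0.12 in HA saline and -0.03 to 0.04 in HA DMI, without overlap. None passed in HA. At an unadjusted p under 0.05, 10 were lower and 1 higher, where 5.61% of all genes were lower and 3.9% higher. In LA the median was -0.01 and none passed. In the mean of both lines Plxnb3, a plexin of oligodendrocytes, fell by 0.20 (adjusted p = 0.036).

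The lines were then compared under saline, and here the HA saline arrays are the same as above. HA mice had a higher signal than LA mice for 8 genes: Car2, Plekhb1, Cryab, Qdpr, Olig1, Trf, Mog and Bcas1, and no gene of the set was lower at the probe used. This was 8 of 32 genes, where 6.36% of all probes passed in either direction and 3.45% of all genes passed as higher in HA. The median of the set was 0.16 with 26 genes above 0, while the median over all genes was -0.0017 and 50.9% of them were below 0. It was 0.22 without LA saline replicate 2 and 0.13 without replicate 3. Median scaling moved the genes detected on every array by 0.19 and the median of the set to 0.42, with Car2, Mbp, Olig1, Plekhb1 and Trf passing. Without LA saline replicate 2, 12 genes were higher in HA, and without HA saline replicate 1, 2 or 3 or LA saline replicate 1 or 3, 5 were (Car2, Olig1, Plekhb1, Qdpr and Trf).

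Car2 showed the largest difference. It read 10.45, 10.58, 10.38 and 10.31 in HA saline and 9.75, 10.004, 9.60 and 9.93 in LA saline, with a gap between the highest LA array and the lowest HA array. The difference was 0.61 (SE 0.0802, adjusted p = 0.000148), or 1.53-fold. Under DMI it read 10.38, 10.10, 10.24 and 10.20 in HA and 9.66, 9.65, 9.62 and 9.77 in LA, a difference of 0.55 (SE 0.0802, adjusted p = 0.000411). The line difference of Car2 passed in every alternative and without each array.

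Qdpr read 10.25, 10.30, 10.08 and 10.11 in HA saline against 9.76, 9.94, 9.51 and 9.42 in LA saline, a difference of 0.53 (adjusted p = 0.00309). Under DMI it read 10.22, 10.12, 9.91 and 10.30 against 9.63, 9.79, 9.66 and 9.73, a difference of 0.44 (adjusted p = 0.0132). In neither treatment did the lines overlap. With median scaling the differences were 0.82 (adjusted p = 0.0504) and 0.64 (adjusted p = 0.178), larger but not past the threshold. The DMI call was also lost without HA DMI replicate 4 (adjusted p = 0.0530). Trf was higher in HA by 0.51 under saline (adjusted p = 0.00714) and by 0.42 under DMI (adjusted p = 0.0296), the latter not when HA DMI replicate 1, 3 or 4 or LA DMI replicate 2, 3 or 4 was left out. Cryab differed by 0.57 under saline (adjusted p = 0.0459), with LA saline arrays spread from 8.44 to 9.53, and its call held only when HA DMI replicate 3 or 4, LA DMI replicate 3 or LA saline replicate 2 was left out.

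Olig1 and Plekhb1 differed between the lines under saline and not under DMI. Olig1 was 11.84 ± 0.105 (SD, n = 4) in HA saline and 11.32 ± 0.0926 in LA saline, a difference of 0.52 (adjusted p = 0.000289), and 11.43 ± 0.127 and 11.43 ± 0.122 in HA and LA DMI. Plekhb1 was 12.22 ± 0.148 against 11.65 ± 0.207 under saline, a difference of 0.57 (adjusted p = 0.000638), and 11.70 ± 0.0932 against 11.74 ± 0.0601 under DMI. In both genes HA saline was the group apart from the other 3. The change of the line difference with treatment is the interaction given above, which did not pass with all arrays. Bcas1 was higher in HA saline by 0.31 (adjusted p = 0.0484) and Mog by 0.36 (adjusted p = 0.0213), and neither call was firm. That of Bcas1 held only when HA saline replicate 4 or LA saline replicate 2 was the array left out, with an adjusted p of up to 0.156 otherwise, and that of Mog was lost without HA saline replicate 1, 2 or 3 or LA saline replicate 1 or 3 (up to 0.0764).

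Under DMI, 4 genes were higher in HA than in LA, Car2, Cnp, Qdpr and Trf, and Gpr17 was lower, so that 5 of 32 passed where 4.91% of all probes did, with 2.16% of all genes higher and 3.43% lower. Without HA DMI replicate 4, 3 passed (Car2, Cnp and Gpr17). The median was 0.06 with 20 genes above 0, where 51.8% of all genes were below 0. It was 0.21 under median scaling, which moved the genes detected on every array by 0.13. Cnp read 10.34, 10.18, 10.38 and 10.36 in HA DMI and 9.84, 9.65, 9.82 and 10 in LA DMI, a gap of 0.49 between the means (SE 0.0942, adjusted p = 0.00465). Under saline it read 10.33, 10.18, 10.36 and 10.44 in HA and 10.24, 10.24, 9.78 and 9.96 in LA, and the difference of 0.27 did not pass (adjusted p = 0.103). The second probe of Cnp, detected on all 16 arrays, did not pass under DMI. Its means under DMI were 8.47 in HA and 8.33 in LA, with overlapping arrays. Gpr17 was lower in HA DMI, at -0.21 on the log2 scale (SE 0.0457, adjusted p = 0.0107), and at -0.05 under median scaling, where it did not pass.

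The saline and the DMI comparison of the lines share no array in their group means. Both tests used the same spread for each gene, pooled from all arrays, so their calls were not independent. Of the 8 genes higher in HA under saline, 3 were also higher under DMI (Car2, Qdpr and Trf), which is 37.5%, close to the 36.3% found for all genes. The sign was the same in 62.5% of the 32 genes and in 63% of all genes. The overlap of the set thus lay near that of all genes.

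**Figure D5:**
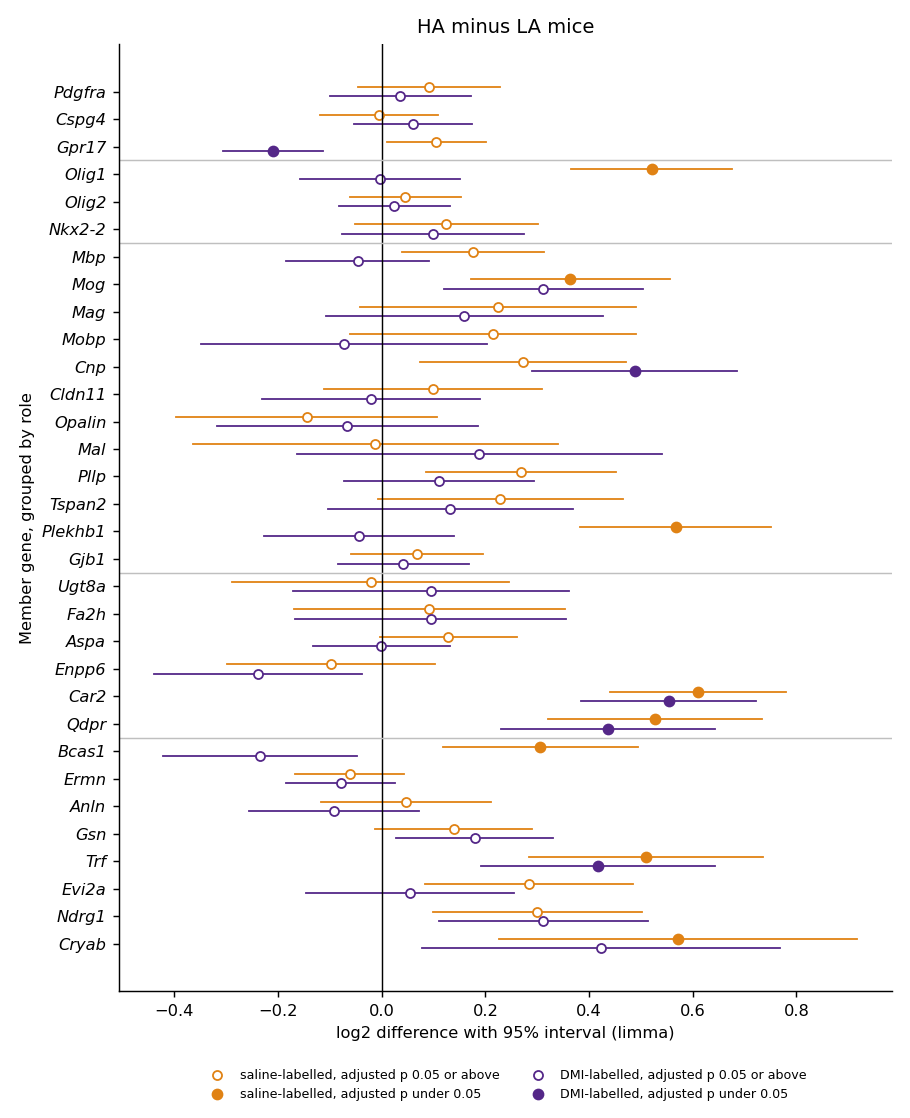
Log2 difference between HA and LA mice with limma's 95% interval for each member gene, on saline arrays (orange) and DMI arrays (purple), n = 4 arrays per group; filled points have an adjusted p under 0.05. Car2, Qdpr and Trf are filled and above 0 in both, and Gpr17 is the only filled point below 0.

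Genes of other cell types also differed between the lines. Under saline 3.45% of all genes were higher in HA and 3.63% lower, and under DMI 2.16% and 3.43%. Of 33 thalamic genes 15 were higher and 1 was lower in HA under saline. Under DMI 1 thalamic gene was higher, near the share of all genes. Of 15 genes of choroid plexus epithelium 9 were higher in HA under saline and 12 under DMI. The choroid plexus mean of 14 genes was 0.38 to 0.51 in HA saline, 0.16 to 0.28 in HA DMI, -0.34 to 0.24 on LA arrays with saline and -0.86 to -0.54 on LA arrays with DMI. Car2 and Trf are known to be made by choroid plexus epithelium as well as by oligodendrocytes, and the part of that tissue in their line difference was not tested. Of the 43 further oligodendrocyte genes 6 were higher in HA under saline (Lgi3, Cers2, Cd9, Josd2, Ppp1r14a and Ttyh2) and Padi2 was lower, and under DMI Ppp1r14a and Cd9 were higher.

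Several genes had more than 1 probe, and these did not always move together. For Mbp the second probe, ILMN_3081854, read 11.38, 11.08, 11.65 and 11.50 in HA DMI and 12.04, 11.60, 11.86 and 11.79 in HA saline. These groups overlapped, with means of 11.40 and 11.82, and the probe did not pass in HA. It was higher in HA than in LA under saline by 0.77 (adjusted p = 0.00119). The third, ILMN_3011353, read 8.48, 8.58, 8.53 and 8.23 in HA DMI, 8.40, 8.43, 8.58 and 8.47 in HA saline, 8.70, 8.83, 8.83 and 8.72 in LA DMI and 8.63, 8.70, 8.80 and 9.10 in LA saline. It was lower in HA than in LA, at -0.34 under saline (adjusted p = 0.0270) and -0.32 under DMI (adjusted p = 0.0439), which is the opposite direction, and its HA DMI difference was -0.02. Which transcripts of the gene each probe reads was not tested.

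The 3 Mobp probes differed by -0.43, -0.32 and 0.03 in HA. The last of them, ILMN_3024681, read 8.52, 8.25, 8.20 and 8.87 in HA DMI and 8.38, 8.48, 8.35 and 8.50 in HA saline. The second probe of Mog gave larger line differences than the first, 0.53 under saline (adjusted p = 0.000146) and 0.36 under DMI (adjusted p = 0.00506), and that of Evi2a passed in both treatments at 0.34 and 0.30 where its first did not. For Ndrg1 the second probe passed under saline at 0.33 (adjusted p = 0.00777). Counted over all 45 probes of the set, 12 were higher and 1 lower in HA under saline, where 3.21% of all probes were higher and 3.15% lower. Under DMI 6 were higher and 2 lower, where 2.19% of all probes were higher and 2.72% lower.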

How the data were processed

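Hippocampal RNA was measured on 16 arrays read in 1 colour, 4 for each of 4 groups. Each deposited intensity is what the authors' BeadArray scan gave for a probe, on a linear scale, before any normalization or background subtraction. The p-value beside each is, per the file headers, the detection p. The log2 values deposited by the authors are, per their methods, log2 transformed and quantile normalized with beadarray and limma; set against the signals they differed by at most 0.0456, so that their scale and normalization are known, and they served as an alternative. Reader software is not given in the sources used here.

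Signals were log2 transformed, quantile normalized and fitted in R 4.3.3 with limma 3.58.1 (lmFit, eBayes) on all 25697 probes, with a mean for each group and 1 pooled spread from all 16 arrays. No filter or background subtraction was set. Calls used an adjusted p under 0.05, with and without a log2 difference over 0.5. The 6 comparisons were DMI minus saline in HA and in LA, their difference, their mean, and HA minus LA under saline and under DMI. A probe was detected at a detection p under 0.05. Probe names came from the platform annotation (23978 probes with 1 symbol, 0 with several, 1719 with none), updated through gene IDs to GRCm38.p6, where 23962 matched. The fit was tested on simulated data.

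The genes and lists were chosen with earlier results of these data known. Genes with values for every array are the 10 members with the smallest p among those that passed in any comparison, the 3 precursor genes, the member with the smallest p in HA of each role, and members whose probes disagree in HA. Trf, Cryab and Ndrg1 passed outside these 10. Lists of astrocytes, microglia, and endothelium and pericytes were also fitted: in HA 1 of 14 astrocyte genes fell, 1 of 12 microglial genes rose and 0 of 15 endothelial genes passed, while the means of the astrocyte and endothelial lists were lower on every HA DMI array than on any HA saline array. Of all genes, 0.331% fell and 0.0723% rose in HA. The labels' replicate numbers do not pair the samples: same-numbered arrays of 2 groups correlated in their deviations from the group means at -0.20 to 0.16.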

Additional observations from a re-analysis of the deposited data

Results flagged for a closer look

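Altogether 3 single arrays stood far from the others of their group among 56 groups of 4 arrays examined (14 genes in 4 groups), and chance alone would pick about 1 group in 20. Olig1 in HA DMI replicate 2 was at 11.24, where the other 3 arrays were at 11.48 to 11.50. Anln in LA DMI replicate 2 was at 8.96, with the others at 8.89 to 8.90, a gap that is small in size. Anln in LA saline replicate 3 was at 8.82, with the others at 9.19 to 9.25. This is the array with the lowest mean of mature genes in its group. Gpr17 moved in opposite directions in the lines with no overlap of arrays in either, and its HA difference minus its LA difference was -0.315 (limma, adjusted p = 0.133 over all probes), which did not pass. It was the only such gene among 32, and such genes were not counted over all genes.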

How the results depend on the processing

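Of the alternatives tried on single genes, 660 values kept their direction and side of the threshold, 109 lost a call, 6 gained one and 4 changed sign. These values cover the 14 genes described in full and leave out Trf, Cryab and Ndrg1. They include HA values that had not passed at the start, and the authors' own log2 values, which are nearly the same as those used here. The sign changes were those of Cnp in HA (0.0078 with median scaling, 0.0312 without HA DMI replicate 2 and 0.0245 without HA saline replicate 4) and of Qdpr in HA (0.0292 without HA DMI replicate 3), none of which passed; leaving out 1 array gave -0.0637 to 0.0312 for Cnp and -0.100 to 0.0292 for Qdpr. With median scaling, the probes past both thresholds went from 29 to 4 in HA, 8 to 2 in LA, 1 to 0 for the difference between lines and 13 to 0 for the mean of both lines. Member genes past both thresholds went from 2 to 0 in HA and from 1 to 2 between lines under DMI. Those past the adjusted p alone went from 4 to 0 in HA, 3 to 0 for the mean of both lines, 8 to 5 between lines under saline and 5 to 2 under DMI, while the member medians between lines went from 0.158 to 0.420 under saline and from 0.0573 to 0.207 under DMI. With a normexp background, members past the adjusted p were 2 in HA and 0 for the mean of both lines, those past both thresholds under DMI were 2, the median under saline was 0.252, and probes past both thresholds were 3 for the difference, 26 for the mean, 820 under saline (305 before) and 593 under DMI (219 before). Array weights gave 50 probes in HA. A fit on the 8 arrays of a comparison gave 60 probes in HA and 0 in LA, and 5 members under saline and 9 under DMI. Testing only probes detected on at least 4 arrays gave 2 probes for the difference. Dropping the size limit gave 4 members in HA, 3 for the mean and 5 under DMI. The cause was not tested for any of these.

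With the replicate number as a block, which the arrays do not bear out as a pairing, probes were 3 in LA and 2 for the difference, 1 member (Bcas1) passed for the mean of both lines and 6 under saline, Bcas1 lost its call between lines under saline (adjusted p = 0.0686), and the calls in HA were the same 4 genes. Leaving out 1 array at a time gave, in HA, 8 to 47 probes, 1 to 2 members past both thresholds and 1 to 5 past the adjusted p. In LA it gave 0 to 31 probes and 0 to 1 members. For the difference it gave 1 to 17 probes, 0 to 3 members by either rule and a member median from -0.156 to -0.0201, the last without LA saline replicate 3. For the mean it gave 6 to 23 probes and 0 to 4 members. Between lines it gave 254 to 354 probes, 2 to 6 and 5 to 12 members under saline, and 203 to 258 probes, 1 to 2 and 3 to 7 members under DMI. Slide as a block was not run, since the column headers used here name no slide. Dim probes limit what could be seen: Aspa and Ermn were not above background on most arrays.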

Other observations

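Of 26 further genes of oligodendrocyte precursors and newly formed cells, 21 had a probe. None passed in HA or in LA, and the median difference was -0.03 in HA and 0.01 in LA. Between the lines Sema5a, a guidance cue made by oligodendrocyte precursors, was higher in HA by 1.13 under saline (limma, adjusted p = 4.4e-05) and by 0.57 under DMI (adjusted p = 0.016), and Itpr2, a calcium release channel, was lower by 0.29 under saline (adjusted p = 0.0099). Under DMI Matn4, Itpr2, Sox5 and Ncald were lower in HA, where 3.43% of all genes were lower. Of 20 genes of cholesterol synthesis, on which myelin growth draws, 15 had a probe and 0 passed in any comparison. Their medians were 0.01 in HA and 0.01 in LA. In LA 2 of 15 had a higher signal at an unadjusted p under 0.05, as 4.78% of all genes did.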
